A study of Mus musculus with 8 samples.

Results

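Glucose transporters and glycolytic enzymes were followed in mouse induced pluripotent stem cells (iPSCs), pluripotent cells made by reprogramming embryonic fibroblasts. The group holds 10 genes picked by name, all found among the 23284 gene symbols of the deposited table, and is read in all 8 polyA RNA libraries. They are the glucose transporter genes Slc2a1 and Slc2a3, the enzyme genes Hk1, Hk2, Pfkl, Pfkp, Aldoa, Pgk1 and Ldha, and Pdk1, which encodes a kinase that governs the entry of pyruvate into mitochondria. The unit is FPKM, which divides the fragments of a gene by its length and by library size, so levels can be set side by side between genes as well as between libraries.

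The knock-in line is homozygous for a miR-203 cassette at ColA1 and for the rtTA transactivator at Rosa26, so that doxycycline (dox) induces the microRNA miR-203. Clones 1 and 2 of this line received dox for 5 days and were collected 2 weeks after its withdrawal (dox group, n = 2). Vehicle libraries came from clones with the same numbers (vehicle group, n = 2). Their titles and treatment labels give them as not induced, but a description that all 4 knock-in libraries share speaks of dox treatment. The titles and treatment labels were followed here, and every comparison with vehicle rests on them. Wild-type iPSCs, without cassette or transactivator, were transfected with siRNA against Dnmt3a (siDnmt3a), against Dnmt3b (siDnmt3b), against both (double siRNA) or with a control siRNA (siControl). They were harvested after 1 week, and each siRNA group is a single library. All cells were grown over feeder cells. The labels do not say whether the clones or transfections came from separate cultures, so p-values measure only the spread between these libraries.

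Glycolysis converts glucose to pyruvate. Transporters of the SLC2A family let glucose into the cell, hexokinases trap it as glucose 6-phosphate, phosphofructokinases commit it to the pathway, aldolase splits the sugar, and phosphoglycerate kinase makes ATP. Lactate dehydrogenase A reduces pyruvate to lactate, and Pdk1 slows the pyruvate dehydrogenase complex and so keeps pyruvate from mitochondrial oxidation. Pluripotent stem cells are known for a high rate of glycolysis, and many of these genes are direct targets of the hypoxia-inducible factor HIF-1.

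HIF-1 binds sites with the core ACGTG, and the promoters below are shown because this core was searched in them and because Dnmt3a and Dnmt3b methylate cytosine in CpG pairs. The windows are the 250 bases before a RefSeq transcription start on GRCm38.p6, for which 9 of the 10 genes matched (all but Slc2a3), with 14 windows in all. Capitals mark ACGTG or its reverse complement CACGT, and CACGTG counts on both strands.
Ldha, chr7:46845554-46845803, plus strand: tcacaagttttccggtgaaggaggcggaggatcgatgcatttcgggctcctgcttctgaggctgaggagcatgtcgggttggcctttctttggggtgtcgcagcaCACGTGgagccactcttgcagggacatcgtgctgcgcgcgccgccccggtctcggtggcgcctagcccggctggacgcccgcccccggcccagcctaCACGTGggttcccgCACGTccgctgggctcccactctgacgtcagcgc
Pgk1, chrX:106186850-106187099, plus strand: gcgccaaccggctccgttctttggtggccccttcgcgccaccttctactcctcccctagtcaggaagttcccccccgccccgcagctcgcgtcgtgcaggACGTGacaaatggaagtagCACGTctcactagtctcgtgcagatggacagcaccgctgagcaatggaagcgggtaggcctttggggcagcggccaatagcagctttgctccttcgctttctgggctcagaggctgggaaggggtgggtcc
Aldoa, window 2, chr7:126799255-126799504, minus strand: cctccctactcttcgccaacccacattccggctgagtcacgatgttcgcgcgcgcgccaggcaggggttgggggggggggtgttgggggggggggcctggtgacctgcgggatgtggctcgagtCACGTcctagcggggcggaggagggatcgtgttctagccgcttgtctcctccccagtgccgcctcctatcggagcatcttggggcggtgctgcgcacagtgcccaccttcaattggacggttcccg
Hk2, chr6:82774455-82774704, minus strand: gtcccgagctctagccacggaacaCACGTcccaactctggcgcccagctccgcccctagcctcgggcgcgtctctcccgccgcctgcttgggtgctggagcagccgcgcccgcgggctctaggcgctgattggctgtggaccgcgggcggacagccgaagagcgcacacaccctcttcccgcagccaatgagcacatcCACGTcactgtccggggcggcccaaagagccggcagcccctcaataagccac
Hk1, window 1, chr10:62379909-62380158, minus strand: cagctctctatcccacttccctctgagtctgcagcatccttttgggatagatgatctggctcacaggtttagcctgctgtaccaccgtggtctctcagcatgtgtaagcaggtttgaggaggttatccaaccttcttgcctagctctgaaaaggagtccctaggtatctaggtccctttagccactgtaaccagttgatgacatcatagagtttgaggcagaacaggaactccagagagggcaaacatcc

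ACGTG was found in a window of 5 of the 9 genes, namely Slc2a1, Hk2, Aldoa, Pgk1 and Ldha, or 55.6%, and 25.7% of the 8504 tested genes with a window hold it in at least 1 window of that length. The first Ldha window holds 5 matches, 2 of which pair up in each CACGTG, and the second holds 0. The Hk2 and Pgk1 windows hold 2 each. GCGTG, the other form of the core, was found in 6 of the 9 genes and in 50.8% of tested genes. CpG pairs numbered 25 in the first Ldha window, 17 in that of Pgk1, 21 in the second Aldoa window and 25 in that of Hk2. The first Hk1 window held 1. The median over the windows of tested genes was 16. A second Hk1 window, at a start inside the gene, holds 14 CpG pairs. These matches describe the letters of the windows and no binding was measured.

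The second set of sequences concerns miR-203 itself, whose seed (bases 2 to 8, in capitals) pairs with CATTTCA in a messenger RNA. The longest annotated 3' UTR of each protein-coding gene (GENCODE M21, GRCm38) was searched for that match, in capitals in the site shown.
mmu-miR-203-3p: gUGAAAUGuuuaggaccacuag
Slc2a3, chr6:122728090-122728119, minus strand: tcggtgcttacaCATTTCAgaccctttagg

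Slc2a3 was the 1 gene of the 10 with a match, at base 1824 of a 3' UTR of 2122 bases, and 16.8% of 10486 tested genes with a 3' UTR had 1 or more. Neither Hk1 nor Hk2, whose 3' UTRs are 1054 and 2285 bases long, held one.

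Pou5f1, a defining pluripotency factor, lay between 855 and 1223 FPKM in all libraries. Other pluripotency markers differed between the lines, with Tfcp2l1 at 70.2 to 110.0 FPKM in the knock-in libraries against 6.30 to 7.98 in the wild-type ones, and Klf4 at 59.3 to 116.0 against 18.9 to 20.4. Utf1, Sall4, Lin28a and Dppa4 went the other way and were lower in every knock-in library than in any wild-type one. Utf1 was at 90.1 to 128.4 FPKM in the knock-in libraries against 234.3 to 296.0 in the wild-type ones. These markers were picked with their values known. The siRNA targets were still well expressed in the siRNA libraries. Dnmt3a was at 59.8 FPKM with siDnmt3a and 69.5 with the double siRNA, against 75.1 in siControl. Dnmt3b was at 128.3 with siDnmt3b and 135.0 with the double siRNA, against 146.3 in siControl, and it was also at 134.8 with siDnmt3a. Both were lower in the knock-in libraries. There Dnmt3a was at 7.55 and 7.64 FPKM in dox against 8.85 and 9.55 in vehicle, and Dnmt3b at 21.5 and 20.8 against 68.8 and 55.1. The summed level of 24 fibroblast markers, chosen to read feeder cells, was 2920 and 3048 FPKM in dox against 924 and 1103 in vehicle. It was 452 with siDnmt3a, 447 with siDnmt3b and 446 with the double siRNA, against 573 in siControl. The sum of 12 macrophage markers was 334 and 425 FPKM in dox against 251 and 279 in vehicle, with Cx3cr1 at most 0.0462 FPKM in any library. In dox, 5 of 10 tested macrophage markers and 2 of 3 endoderm markers rose, 4 of 14 pluripotency markers rose and 3 fell, and 10 of 10 interferon response genes fell, beside 17.1% of all genes higher and 14.8% lower. The macrophage count was 8 without dox clone 1 or with the clone as a block and 3 without vehicle clone 1. The count of pluripotency markers that fell was 5 without dox clone 1 and 6 with the block, and no endoderm marker passed with a minimum of 5 FPKM. Of 8 endoderm markers listed, only 3 were tested, and Pdgfra, which rose, is also among the fibroblast markers. Pdgfra was at 2.26 and 2.75 FPKM in dox against 0.486 and 0.729 in vehicle. It thus reached the mean of 1 FPKM needed for testing through dox. Itgam, a macrophage marker that rose, averaged 1.94 FPKM in dox against 0.975 in vehicle. In bulk RNA, fewer cells of a type and less RNA per cell cannot be told apart.

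The 10 genes spanned a wide range of levels. In vehicle libraries, Aldoa averaged 1061 ± 31.9 FPKM, Ldha 775 ± 84.8, Pgk1 607 ± 42.5, Slc2a3 297 ± 21.9 and Slc2a1 119 ± 23.8 (SD, n = 2 each), with no overlap between these neighbours. Pfkl at 69.5 ± 11.25, Hk2 at 57.7 ± 4.73 and Pfkp at 54.2 ± 11.9 followed, and Pfkp overlapped with both of the others. Pdk1 at 33.3 ± 4.24 and Hk1 at 22.7 ± 3.61 were lowest. In siControl, Ldha at 868 FPKM stood above Aldoa at 670, Slc2a1 at 261 above Slc2a3 at 168, and Hk1 was again lowest, at 8.93. Together the 10 genes took 0.690% and 0.668% of the library FPKM in dox against 0.583% and 0.668% in vehicle. The share was 0.566% with siDnmt3a, 0.505% with siDnmt3b and 0.482% with the double siRNA, against 0.510% in siControl.

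**Figure D1:**
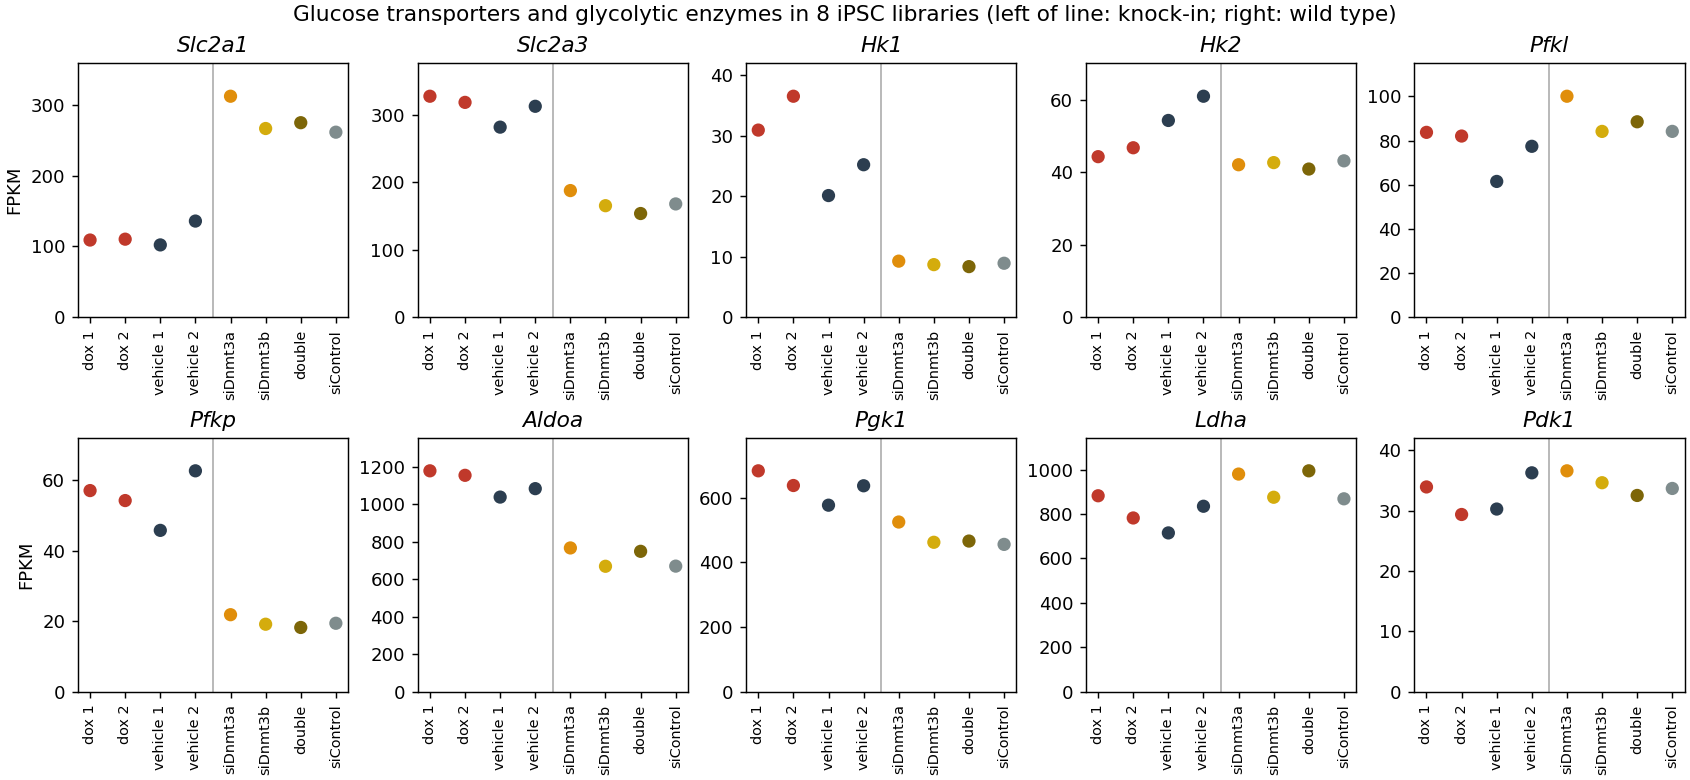
FPKM (linear axis from 0) of each gene in the 8 libraries, 1 point per library, with the 4 knock-in libraries left of the grey line and the 4 wild-type libraries right of it. Hk1 lay highest in both dox libraries, and Slc2a1 was higher and Slc2a3, Hk1 and Pfkp lower in all wild-type libraries.

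The dox and vehicle libraries address what remains of a transient miR-203 induction 2 weeks on. Among the sugar-trapping enzymes, the 2 hexokinase genes moved in opposite directions. Hk1, the hexokinase of most tissues, was at 31.0 and 36.6 FPKM in dox against 20.1 and 25.2 in vehicle. Both dox libraries lay above both vehicle libraries, and the gene rose by 0.56 on the log2(FPKM + 1) scale, a ratio of means of 1.49 (SE 0.131, limma adjusted p = 0.0229).

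Hk2, the inducible hexokinase of muscle, tumours and embryonic cells, was at 44.4 and 46.8 FPKM in dox against 54.3 and 61.0 in vehicle. The groups did not overlap either, and Hk2 fell by 0.33 on that scale, a ratio of 0.790 (SE 0.0860, limma adjusted p = 0.0302). Their sum was 75.3 and 83.4 FPKM in dox against 74.5 and 86.3 in vehicle, so the groups overlapped. Hk1 made up 41.1% and 43.9% of it in dox against 27.0% and 29.2% in vehicle, a difference of 14.3 percentage points. A two-sided exact permutation test gave p = 0.333, the smallest p that 2 against 2 libraries allow.

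The Hk1 call was lost at limma adjusted p = 0.0986 without vehicle clone 1 and at 0.0762 with no filter on low genes (range over all alternatives 8.92e-05 to 0.0986). The Hk2 call was lost in 5 alternatives, among them median-of-ratios scaling (adjusted p = 0.0777) and the removal of vehicle clone 2 (adjusted p = 0.1535; range 0.00132 to 0.1535), while its difference stayed negative, from -0.41 to -0.25. The summed fibroblast markers were higher in dox, as given above, and their part in these values was not tested.

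**Figure D2:**
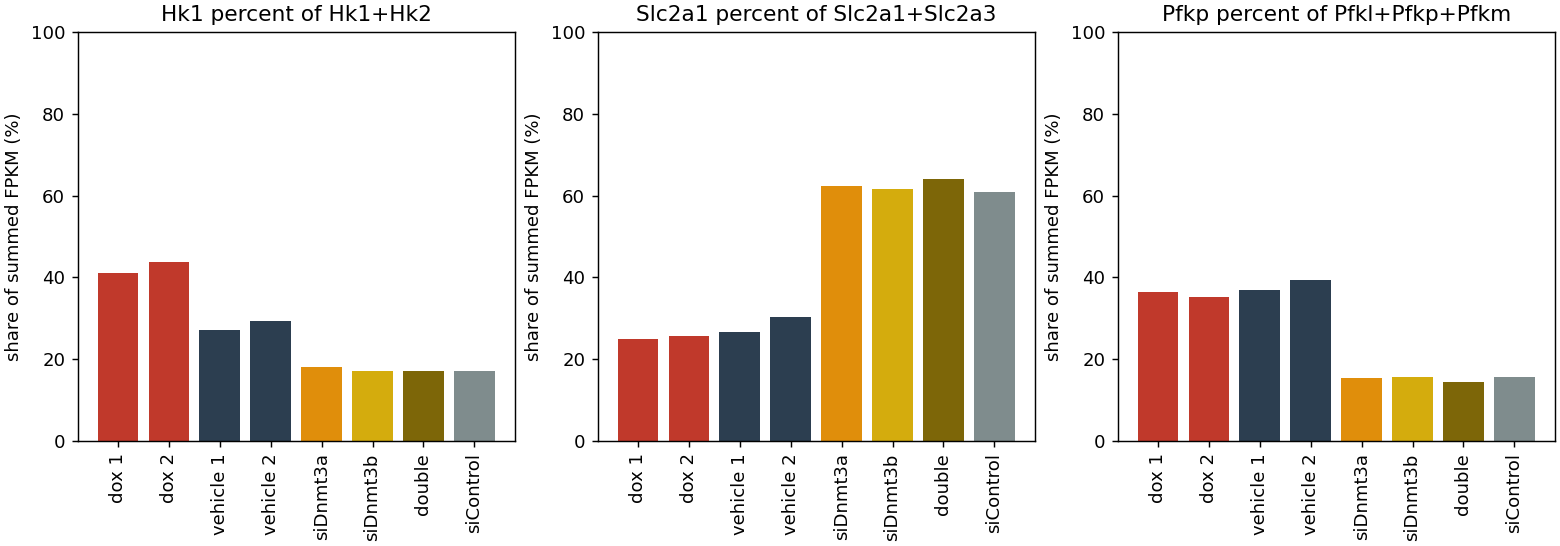
Share (%) of Hk1 in Hk1 + Hk2, of Slc2a1 in Slc2a1 + Slc2a3 and of Pfkp in Pfkl + Pfkp + Pfkm, as bars from 0, 1 bar per library. The Hk1 share was highest in dox (41.1% and 43.9%) and between 16.9% and 18.1% in the wild-type libraries, where Slc2a1 made up 60.9% to 64.2% of both transporters.

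The other 8 genes did not pass. Thus 1 of 10 genes rose and 1 fell, beside 31.9% of the 11927 genes tested that passed in either direction (17.1% higher and 14.8% lower). The calls in the group were no more frequent than among all genes. Over all genes 2035 rose and 1767 fell, against 2539 and 1163 with median-of-ratios scaling. The median difference of the 10 genes was 0.11, against -0.01 over all genes tested. With the clone number as a block, 3 of the 10 rose and 1 fell, beside 52.3% of all genes in either direction and 25.6% higher.

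Of the transporters, Slc2a1, the widespread GLUT1, was at 109 and 110.3 FPKM in dox against 102 and 136 in vehicle, so the vehicle libraries lay on both sides of dox. Its difference was -0.10 (SE 0.131, limma adjusted p = 0.570). Slc2a3, the high-affinity GLUT3 and the gene with the miR-203 seed match, was at 327 and 318 FPKM in dox against 282 and 313 in vehicle, which did not overlap. Its difference was 0.12 (SE 0.0762, limma adjusted p = 0.256).

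Pfkl, the liver form of phosphofructokinase, was at 83.7 and 82.1 FPKM in dox against 61.5 and 77.4 in vehicle. The difference of 0.26 (SE 0.1135) missed the threshold at limma adjusted p = 0.1225, but not in the fit blocked on clone (adjusted p = 0.0189) or without vehicle clone 2 (adjusted p = 0.0322). Pfkp, the platelet form, was at 57.0 and 54.2 FPKM in dox, inside the vehicle values of 45.8 and 62.6 (0.05, SE 0.143, limma adjusted p = 0.796). Pfkl thus kept its groups apart and Pfkp did not.

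Aldoa, the main aldolase outside the liver, was at 1178 and 1154 FPKM in dox against 1038 and 1083 in vehicle. Its difference of 0.14 (SE 0.0639) missed the threshold at limma adjusted p = 0.1445, but not with the block (adjusted p = 0.0312) or median-of-ratios scaling (adjusted p = 0.0372). Pgk1 was at 683 and 637 FPKM in dox against 577 and 637 in vehicle, with the second pair nearly equal (0.12, SE 0.0782, limma adjusted p = 0.263). Without overlap between groups stood 6 of the 10 genes, Slc2a3, Hk1, Hk2, Pfkl, Aldoa and Pgk1, beside 72.2% of all genes tested. In 5 of them dox was higher and in 1 lower, beside 35.1% and 37.1% of all genes.

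At the lactate end, Ldha was at 882 and 782 FPKM in dox against 715 and 835 in vehicle (0.10, SE 0.0997, limma adjusted p = 0.447). Pdk1 was at 33.9 and 29.4 in dox against 30.3 and 36.3 in vehicle (-0.07, SE 0.116, limma adjusted p = 0.674). The groups overlapped for both. Ldha made up 91.8% and 85.4% of Ldha plus Ldhb, the heart-type subunit, in dox against 89.8% and 90.4% in vehicle.

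**Figure D3:**
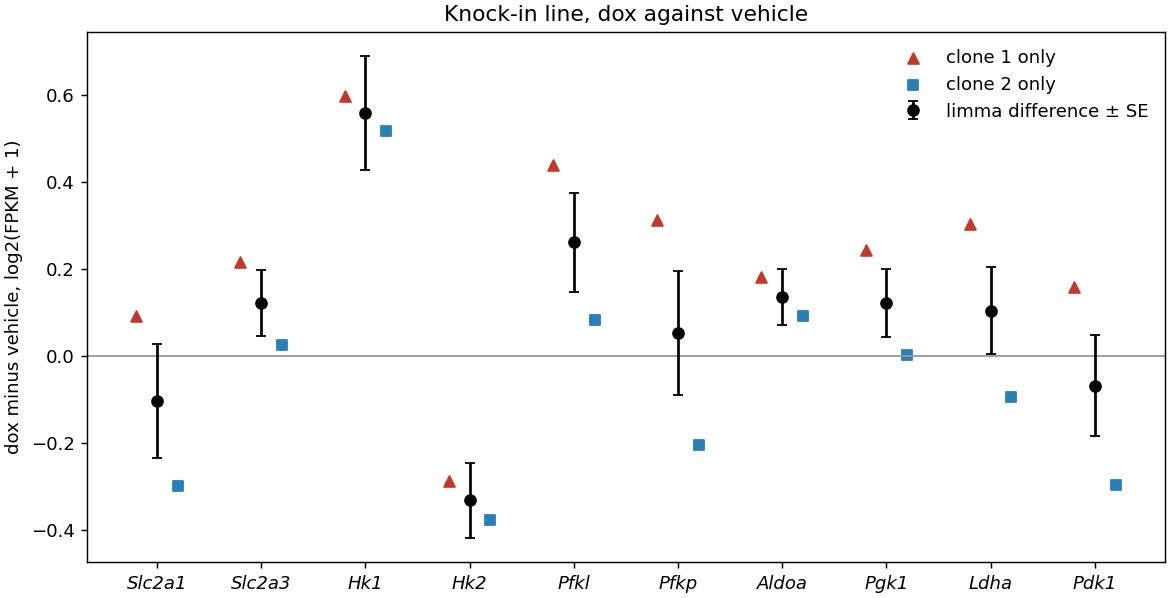
Dox minus vehicle on the log2(FPKM + 1) scale for each gene, as the limma difference ± SE (circles, n = 2 clones per group) and for clone 1 (triangles) and clone 2 (squares) alone. Hk1 was positive and Hk2 negative in both clones, while Slc2a1, Pfkp, Ldha and Pdk1 were positive in clone 1 and negative in clone 2.

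The spread between clones was as large as most of these differences. All 10 genes were higher in vehicle clone 2 than in vehicle clone 1, beside 52.1% of all genes, and 7 of 10 were higher in dox clone 1 than in dox clone 2, beside 51.4%. In vehicle the gap was 0.44 for Pfkp, 0.41 for Slc2a1 and 0.33 for Pfkl, and at the low end 0.06 for Aldoa (log2, clone 2 minus clone 1). In dox it ran from -0.20 for Pdk1 and -0.17 for Ldha to 0.23 for Hk1. Vehicle clone 2 also exceeded vehicle clone 1 at 16 of 20 further hypoxia response genes, 22 of 23 fibroblast markers and 9 of 10 interferon response genes. It did so at only 7 of 13 further glycolytic enzymes, 6 of 10 regulators, 9 of 16 citrate cycle genes and 2 of 14 pluripotency markers. The part of any of these lists in the gap was not tested.

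**Figure D4:**
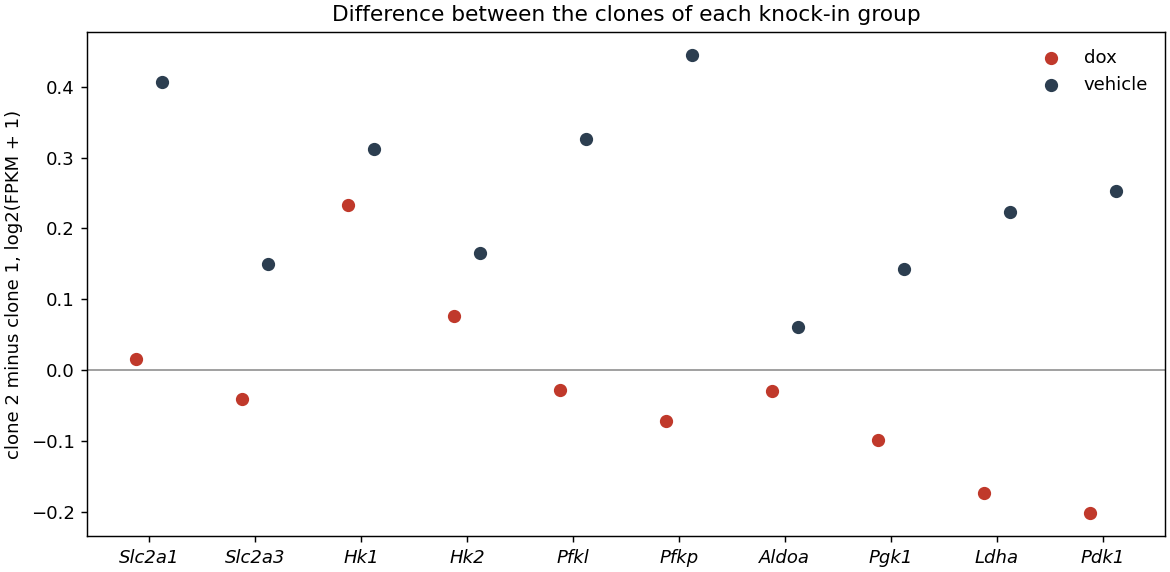
Clone 2 minus clone 1 on the log2(FPKM + 1) scale for each gene, within the dox group (red) and the vehicle group (dark). All 10 vehicle points lie above 0, up to 0.44 for Pfkp, and 7 of the 10 dox points lie below 0.

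By clone, the dox minus vehicle difference of Hk1 was 0.60 in clone 1 and 0.52 in clone 2, and that of Hk2 -0.29 and -0.38. Pfkp differed by 0.31 in clone 1 and -0.21 in clone 2, Slc2a1 by 0.09 and -0.30, Ldha by 0.30 and -0.09, and Pdk1 by 0.16 and -0.30. Only the hexokinases, Slc2a3, Pfkl, Aldoa and Pgk1 kept their sign, Pgk1 with 0.24 and 0.00.

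The rest of the pathway moved as little. Of 13 further glycolytic enzymes and isoenzymes tested, 2 rose, none fell and 11 did not pass (median -0.04). Gpi1, the isomerase that follows hexokinase, was at 307 and 297 FPKM in dox against 248 and 254 in vehicle (0.27, limma adjusted p = 0.0259). Eno2, the neuronal enolase, was at 3.11 and 3.09 against 2.21 and 1.73 (0.47, limma adjusted p = 0.03045). Neither passed without dox clone 2, without vehicle clone 2 or with no filter, and with the block 2 genes of the list rose and 3 fell. Among the most abundant steps, Gapdh was at 1410 and 1287 FPKM in dox against 1303 and 1234 in vehicle, and Eno1 at 699 and 659 against 696.2 and 695.9. Neither passed, and both were named after their values were seen.

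Of 5 other transporters tested, Bsg, the chaperone of lactate transporters, rose to 473 and 515 FPKM in dox against 307 and 324 in vehicle (0.64, limma adjusted p = 0.002125). Slc2a6, a lysosomal hexose transporter of myeloid cells, fell to 4.24 and 3.91 FPKM in dox against 9.56 and 11.02 in vehicle (-1.15, limma adjusted p = 0.00102), and 3 did not pass. Of 10 regulators, Pdk2, a second kinase of pyruvate dehydrogenase, rose to 3.14 and 3.83 FPKM in dox against 1.31 and 1.52 in vehicle (0.89, limma adjusted p = 0.00450), and the other 9 did not pass. With the block 3 regulators rose and 1 fell.

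Neighbouring pathways were read against the 31.9% of all genes that passed. Of 7 genes for pyruvate entry, Pdhb, a subunit of pyruvate dehydrogenase, fell by 0.26 on the log2 scale (limma adjusted p = 0.0473). Of 7 pentose phosphate genes, Pgls rose by 0.41 and Rpia fell by 0.44 (limma adjusted p = 0.0480 and 0.0201). Of 3 gluconeogenic genes tested, Pcx, pyruvate carboxylase, rose by 0.59 and G6pc3, a glucose 6-phosphatase, by 0.78 (limma adjusted p = 0.0123 and 0.0121). In the citrate cycle 1 of 16 rose, Sdhc by 0.23 (limma adjusted p = 0.0447). No gene for pyruvate entry, the pentose phosphate pathway or the citrate cycle passed once either vehicle clone was left out. With the block, 1 gene for pyruvate entry rose and 3 fell, 2 pentose phosphate genes rose and 2 fell, and 5 citrate cycle genes rose and 1 fell.

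Regulators of the hypoxia response moved in both directions. Hif1a, which encodes the oxygen-sensitive subunit of HIF-1, rose to 55.7 and 53.9 FPKM in dox against 35.9 and 37.0 in vehicle (0.58, SE 0.0728, limma adjusted p = 0.00298). Epas1, which encodes HIF-2 alpha, fell by 0.56 (limma adjusted p = 0.0391). Of 11 HIF and MYC regulators, Hif1a, Egln1 (a HIF prolyl hydroxylase) and Txnip (an inhibitor of glucose uptake) rose, 2 fell, Epas1 among them, and 6 did not pass, with a median of -0.03. Without vehicle clone 1 or dox clone 2, 2 rose and 1 fell. The count that fell was also 1 without vehicle clone 2, with no filter and with median-of-ratios scaling, and 4 with the block.

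Of 20 further hypoxia response genes, 9 rose, 3 fell and 8 did not pass (median 0.36, against -0.01 over all genes, of which 17.1% rose and 14.8% fell). P4ha2 and P4ha1, prolyl hydroxylases of collagen, rose by 2.40 and 1.24, the peptide hormone gene Adm by 1.67 and Fam162a, a mitochondrial gene, by 1.03 (limma adjusted p between 6.46e-05 and 0.000588). Car9, among the 9 that rose, was at 1.32 and 2.10 FPKM in dox against 0.308 and 0.411 in vehicle. It thus reached the mean of 1 FPKM needed for testing through dox. Kdm3a (-0.57), Ndrg1 (-0.42) and Ankrd37 (-0.41) were the 3 that fell. Car9 and these 3 were named after their values were seen. The 3 that fell became 0 without vehicle clone 1 and 1 without dox clone 2, without vehicle clone 2 or with no filter. The 9 became 6 without vehicle clone 1. In the same libraries 23 of 23 tested fibroblast markers rose, by a median of 1.59, and their part in these counts was not tested. Among them Lum, at 6.29 and 6.10 FPKM in dox against 0.769 and 0.862 in vehicle, and Pdgfra reached the mean needed for testing through dox.

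In mean log2(FPKM + 1), each gene of the group but Pdk1 differed more between vehicle and siControl than between dox and vehicle. The margin was narrow for Pfkl (-0.28 against 0.26), and Pdk1 differed by -0.02 against -0.07. Slc2a1 was at 102 and 136 FPKM in vehicle against 261 in siControl, a ratio of 0.456, while Slc2a3 was at 282 and 313 against 168, a ratio of 1.77. Hk1 was at 20.1 and 25.2 FPKM in vehicle against 8.93 in siControl (ratio 2.54), and Pfkp at 45.8 and 62.6 against 19.4 (ratio 2.79). Hk1 and Pfkp were 2-fold or more higher in both vehicle clones, beside 6.92% of 11929 genes, and no gene of the group was lower by as much, beside 4.54%.

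Aldoa was at 1038 and 1083 FPKM in vehicle against 670 in siControl, Pgk1 at 577 and 637 against 456, and Hk2 at 54.3 and 61.0 against 43.2. Pfkl was at 61.5 and 77.4 against 84.2. Ldha (715 and 835 in vehicle, 868 in siControl) and Pdk1 (30.3 and 36.3, against 33.7) were the nearest to equal. Over all libraries, 6 of the 10 genes were higher in the 4 knock-in than in the 4 wild-type libraries without overlap and 2 were lower, Slc2a1 and Pfkl, beside 30.5% and 30.2% of 12042 genes (60.7% in either direction). For Pfkl the margin was 83.7 in the highest knock-in library against 84.2 in the lowest wild-type one. These were compared without a test, since line, derivation and transfection differ together and cannot be told apart, and the fibroblast markers also summed to more in vehicle.

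Shares of paralogues differed between the lines for transporters and phosphofructokinases and not by as much for lactate dehydrogenase. Slc2a1 made up 26.6% and 30.3% of the 2 transporters in vehicle against 60.9% in siControl, although their sum was 384 and 449 FPKM against 429. Pfkp made up 36.8% and 39.3% of the 3 phosphofructokinase genes in vehicle against 15.6% in siControl. Ldha made up 89.8% and 90.4% of Ldha plus Ldhb in vehicle against 90.3% in siControl.

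In the siDnmt3a library, 9 of the 10 genes were above siControl, beside 48.3% of 11768 genes, all by less than 1.2-fold. Slc2a1 was at 312 FPKM in the siDnmt3a library against 261 in siControl (19.45% higher), Pfkl at 100.1 against 84.2 (18.85%), Pgk1 at 525 against 455.5 (15.15%) and Aldoa at 767 against 670 (14.5%). Ldha was at 980 against 868, Pfkp at 21.9 against 19.4, Slc2a3 at 188 against 168 and Pdk1 at 36.6 against 33.7. The hexokinases stood out as the smallest differences, Hk1 at 9.28 against 8.93 and Hk2 at 42.1 against 43.2. The median difference was 0.17 (log2), against -0.00 over all genes. Single libraries allow neither a replicate check nor a p-value here. Fibroblast markers were lower than in siControl in all 3 siRNA libraries, and their part in the siDnmt3a values was not tested.

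None of the 10 genes reached 1.2-fold, beside 2.49% of genes higher and 3.1% lower, nor 2-fold, beside 0.068% and 0.085%. Other genes of the pathway were also higher in the siDnmt3a library, with 11 of 11 further glycolytic enzymes above siControl and a median of 0.11. Pgam2, among the 11, was at 1.37 FPKM against 0.868. It thus reached the mean of 1 FPKM needed here, over siControl and the siRNA library, through siDnmt3a. Tpi1, triose phosphate isomerase, was at 343 FPKM against 276, Aldoc, the brain aldolase, at 9.396 against 7.004, and Slc16a3, the lactate exporter MCT4, at 72.9 against 55.6. Of 19 further hypoxia response genes 15 were above siControl, 7 by 1.2-fold or more, with a median of 0.20. Car9, among the 7, was at 1.44 FPKM against 0.887 and also reached the mean of 1 FPKM through siDnmt3a. At 0.809 FPKM with siDnmt3b and 0.892 with the double siRNA, it was left out of the counts for those libraries. Bnip3, a mitophagy gene, was at 33.2 FPKM against 22.5, Ddit4 at 40.99 against 28.96, and Egln3 at 11.4 against 8.57. These genes were named after their values were seen.

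In the siDnmt3b library the 10 genes were nearly level with siControl, with 4 above it, beside 48.7% of 11727 genes, and a median of -0.00. Pdk1 had the highest difference of the 10, 34.6 FPKM against 33.7 (2.82%), and Hk1 the lowest, 8.70 against 8.93. Pgk1 was at 462.0 against 455.5, Slc2a1 at 266.7 against 261.5 and Ldha at 875.2 against 868.2. Slc2a3 was at 165.3 against 167.9, Hk2 at 42.7 against 43.2, Pfkp at 19.2 against 19.4, Aldoa at 669.2 against 670.0 and Pfkl at 84.17 against 84.18. None reached 1.2-fold, beside 1.27% higher and 3.43% lower, nor 2-fold, beside 0.0512% and 0.0597%.

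In the double siRNA library, which also received siRNA against Dnmt3a, the 10 genes were split. Of them 5 were above siControl, beside 51.6% of 11723 genes, with a median of -0.01. Ldha was at 994 FPKM against 868 (14.5% higher) and Aldoa at 749 against 670 (11.8%), while Slc2a3 was at 154 against 168 (-8.50%) and Hk1 at 8.37 against 8.93 (-6.23%). Slc2a1 was at 274.9 against 261.5, Pfkl at 88.5 against 84.2 and Pgk1 at 465.8 against 455.5. Pfkp was at 18.2 against 19.4, Hk2 at 40.9 against 43.2 and Pdk1 at 32.5 against 33.7. None reached 1.2-fold, beside 11.5% higher and 11.4% lower, nor 2-fold, beside 0.102% and 0.136%. Of the further glycolytic enzymes, 10 of 10 were above siControl in this library as well, with a median of 0.156. After the correction for GC content and length described below, that median was 0.0116. Pgam2, counted for siDnmt3a, was lower here, at 0.742 FPKM against 0.868. It fell under the mean of 1 FPKM and so was left out of the 10. The further hypoxia response genes had a median of -0.065, with 6 of 18 above siControl. All 3 siRNA comparisons share the siControl library.

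Double siRNA differences followed transcript GC content and length across genes (Spearman's rho 0.481 and -0.493 over 11636 genes, which are not independent replicates), and those of siDnmt3a less so (0.231 and -0.234). After correction for both, Aldoa differed by -0.05 instead of 0.16, Ldha by 0.05 instead of 0.20 and Slc2a3 by -0.01 instead of -0.13 in the double siRNA library. Pfkp turned to 0.12 instead of -0.09, Pgk1 to -0.08 instead of 0.03 and Pdk1 to 0.06 instead of -0.05, while Hk1 lay farther from 0, at -0.13 instead of -0.08. In the siDnmt3a library, the corrected median of the 10 genes was 0.15, with Slc2a1 at 0.24, Pfkl at 0.23 and Pfkp at 0.20. No gene of the group reached 1.2-fold higher after correction in the siDnmt3a, siDnmt3b or double siRNA library, beside 1.89%, 1.05% and 6% of genes.

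**Figure D5:**
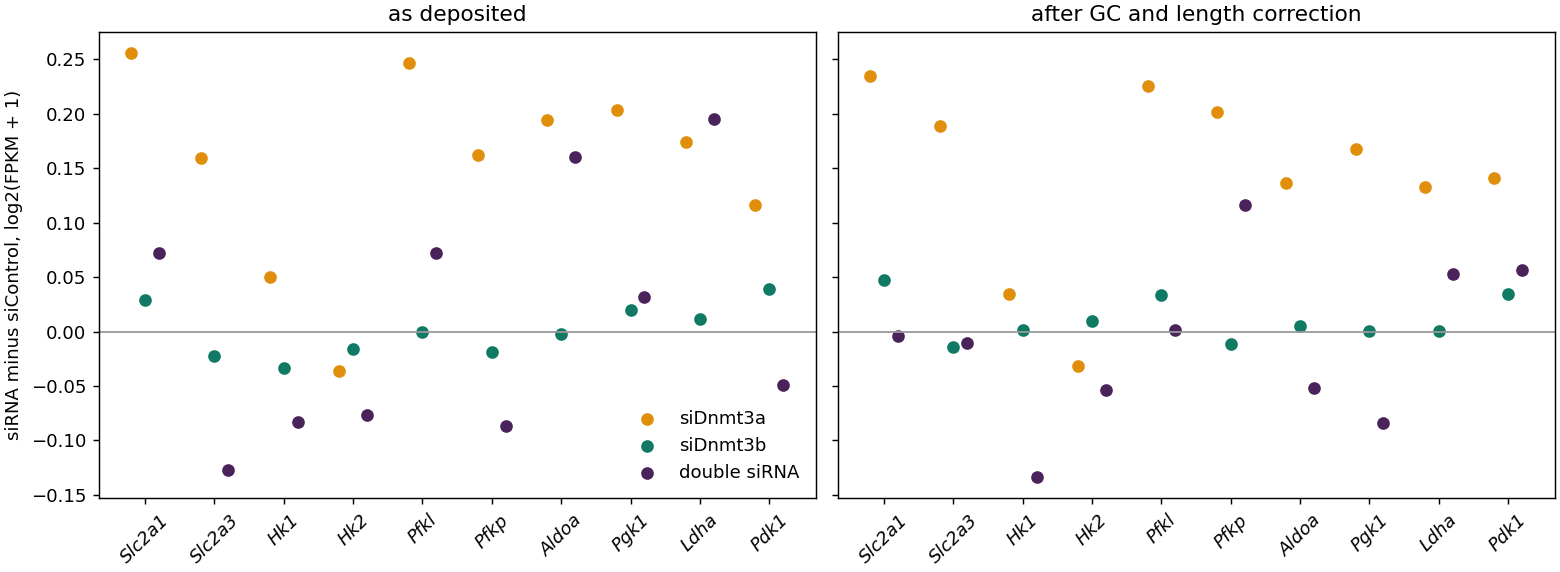
Difference from siControl on the log2(FPKM + 1) scale for each gene in the 3 siRNA libraries (1 library each, no error), as deposited (left) and after correction for GC content and length (right). Points of the siDnmt3a library lie above 0 for 9 of 10 genes on the left, while siDnmt3b points lie near 0 and double siRNA points fall on both sides.

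For each gene, the 2 genes outside the group with the most similar profile were sought by Pearson's r over the 8 libraries. The search covered 3418 genes that met a level of 10 FPKM and an SD of 0.2. The group's own genes, predicted genes, clone names, small RNA genes and joined symbols were left out of it. The libraries fall into 2 lines, so for each gene r is given first and r after centring each line second. Pgk1 was most like Bnip3 (0.98 and 0.96) and Fech (0.98 and 0.88), and Hk1 most like Asns (1.00 and 0.96) and Esd (1.00 and 0.96). Hk2 was most like Samhd1 (0.99 and 0.98) and Trim21 (0.98 and 0.95), both interferon-inducible genes. Slc2a1 was most like Vangl2 (1.00 and 0.91) and Llgl1 (0.995 and 0.89), and Slc2a3 most like Rbfox2 (0.99 and 0.85) and Ap3b1 (0.99 and 0.82). Pfkl was most like Csk (0.92 and 0.91) and Acadl (0.92 and 0.86), and Pfkp most like Rbfox2 (1.00 and 0.91) and Pnrc1 (0.99 and 0.83). Aldoa was nearest to Hebp1 (0.99 and 0.84) and Pgap2 (0.99 and 0.82). Ldha was nearest to Ddrgk1 (0.90 and 0.78) and Cyp20a1 (0.89 and 0.87). Pdk1, with the lowest r of the 10, was nearest to Sc5d (0.72 and 0.69) and Rpl22l1 (0.70 and 0.69). The points share library depth and processing, and these values carry no test.

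The 10 genes lie on GRCm38 chromosomes 2 (Pdk1), 4 (Slc2a1), 6 (Slc2a3 and Hk2), 7 (Aldoa and Ldha), 10 (Hk1 and Pfkl), 13 (Pfkp) and X (Pgk1), all protein-coding, and each value covers the whole gene. Hk1 spans 62268855 to 62379908 and Hk2 82725025 to 82774454, both on the minus strand. Related copies in the table stayed low, with Pgk2 at most 0.0271 FPKM, Ldhc 0.948, Ldhal6b 1.75 and Aldoart1 0.283. How fragments shared with processed copies of Aldoa, Pgk1, Ldha and Gapdh were counted is not stated in the labels, and their levels are uncertain to that extent.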

How the data were processed

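The authors deposited FPKM, 1 column per library, and the submitters' processing notes name Cufflinks 2.2.1, Cuffnorm, TopHat2 2.0.10, SAMtools 0.1.19 and Bowtie 1.0.0 with the build GRCm38/mm10. The scaling chosen in Cuffnorm, the gene models and whether counting used strand are not stated there. The libraries kept strand (dUTP), per the labels. Depth in fragments is unknown, and no counting interval is given. FPKM summed to 486917 to 586657 per library, and 11620 to 12076 genes had 1 FPKM or more.

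R 4.3.3 with limma 3.58.1 (moderated two-sided test with a mean-variance trend, Benjamini-Hochberg over all genes, threshold 0.05) was run for dox against vehicle on log2(FPKM + 1), a scale that understates changes of low genes, over 11927 genes with a mean of 1 FPKM or more in those 4 libraries. The code was tested on simulated data. The siRNA libraries and the line were described without a test, at 1.2-fold and 2-fold. GC content and length came from the longest GENCODE M21 transcript (99.3% of genes matched), promoters and miRNA from RefSeq (GRCm38.p6). The main fit held no clone term, so its p-values are unpaired. Clone numbers paired libraries only in the fit blocked on clone and in the differences given by clone, since the labels number the clones alike. Across genes the clone difference in dox correlated with that in vehicle (r = 0.441).

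The 10 genes, the 14 other lists and all tests were chosen with earlier results of these data known. Of 192 list entries, 5 were matched through an older symbol. All 10 genes are named in each comparison. From each other pathway list the genes named are up to 4 with the highest absolute difference past the threshold in dox, or all for the glycolytic enzymes. Further genes are said to be named after their values were seen.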

Additional observations from a re-analysis of the deposited data

How the results depend on the processing

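Hk1 was higher and Hk2 lower in dox under all 12 alternatives, while the calls depended on the setting. Of the 10 genes, 3 rose with the replicate block (genes lower 3190), 2 rose and 0 fell with median-of-ratios scaling (genes lower 1163), and 0 rose and 0 fell with no filter (genes lower 947). A minimum of 5 FPKM left 1289 genes higher. Leaving out 1 library gave 1057 to 2130 genes higher and 527 to 2014 lower, and 0 to 2 of the 10 higher and 0 to 1 lower. Without vehicle clone 1 fewest genes passed. The block changed the call of Pfkl and Aldoa and of no other gene of the 10.

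Signs turned only for genes that did not pass. Pdk1 was at 0.0145 with median-of-ratios scaling. Over the left-out libraries Slc2a1 ran from -0.3062 to 0.1008, Pfkp from -0.169 to 0.2757, Ldha from -0.0074 to 0.2161 and Pdk1 from -0.1945 to 0.0587.

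For siDnmt3a, a pseudocount of 0.1 gave 13 genes 2-fold higher, 32 lower, 514 higher by 1.2-fold and 624 lower, a minimum of 5 FPKM gave 3, 4, 115 and 103, and GC and length correction gave 5 that were 2-fold higher. For siDnmt3b the pseudocount gave 10, 21, 319 and 662 and the minimum 1, 4, 51 and 119. For the double siRNA the pseudocount gave 22 and 48 at 2-fold, the minimum 5 and 10 with 684 lower by 1.2-fold, and the correction 5 that were 2-fold higher, with 703 higher and 786 lower by 1.2-fold. Between the lines, the minimum left 241 genes 2-fold lower. A higher minimum tests fewer genes, and the cause of the other shifts was not tested.

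Depth in fragments is unknown, and with 2 or 1 libraries a group small differences cannot be resolved. A left-out library leaves an arm of 1, assumed to vary like the other group.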
